A study of Mus musculus with 31 samples.

Results

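A set of 10 genes that mark megakaryocytes and blood platelets was followed across long-term haematopoietic stem cells (LT-HSCs) of mice with a JAK2-driven blood disease. They were taken from the table by symbol: the granule chemokines Pf4 and Ppbp, the integrin subunits Itga2b and Itgb3, the signalling protein Plek, the adhesive protein Vwf, the receptor subunits Gp1bb, Gp5 and Gp9, and the adhesion receptor Selp. These are 10 of the 55492 rows of the gene counts table, and all 10 were among the 22172 rows kept for testing. Bulk RNA was sequenced from bone marrow cells gated as lineage-negative, Sca1-positive, cKit-positive, CD150-positive and CD48-negative.

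The donor marrow was of 2 kinds, and each was mixed with a 10-fold excess of wild-type marrow and transplanted into wild-type mice. VFDM marrow has the labelled genotype SclCre;FF1;Dnmt3 delta/delta;GFP, which the design text describes as JAK2-V617F with a knockout of Dnmt3a, a DNA methyltransferase. VF marrow is SclCre;FF1;GFP and carries JAK2-V617F, the activating kinase mutation of myeloproliferative neoplasms, with Dnmt3a intact. Every group therefore carried the Cre, FF1 and GFP alleles, and Scl sequences, which are active in blood stem and progenitor cells, drive the Cre. The labelled gate does not name GFP, so wild-type LT-HSCs of the graft are not stated to have been removed. From 4 weeks after transplantation the mice were treated for 8 weeks with both drugs (COMBO), with pegylated interferon alpha (IFN, 25 µg/kg weekly, under the skin), with 5-azacytidine (AZA, 2 mg/kg daily, into the peritoneum) or with vehicle. There were 4 libraries in each of the 8 groups except VFDM COMBO, which had 3. Nothing in the labels ties a library to 1 animal, and the p-values below reflect library-to-library spread, which may be technical.

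Megakaryocytes are the large marrow cells that shed platelets. Platelets carry chemokines, Vwf and Selp in granules, stick to vessel walls through the Gp1b-Gp9-Gp5 complex, which binds Vwf, and aggregate through the integrin made of Itga2b and Itgb3, which binds fibrinogen. Some of these genes, Vwf and Itga2b among them, are also expressed in a part of the LT-HSCs themselves, the stem cells described as platelet-biased. In bulk RNA, fewer cells that express a gene and less RNA per cell cannot be told apart.

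Promoter sequences are shown for the 5 members that passed a test and have an entry in the promoter table (Itgb3, the sixth, has none), because the results turn on them. RefSeq windows on GRCm38.p6, from 250 bases before to 50 bases after the start site, matched 8 of the 10 members, all but Itgb3 and Vwf. Each is written 5′ to 3′ on the strand of its gene, with capitals for matches to 5 short motifs searched on both strands. GATA factors recognise the motif AGATAA, ETS factors such as Fli1 recognise AGGAAG, RUNX factors recognise TGTGGT and STAT factors recognise TTCNNNGAA. The interferon-stimulated response element was searched as 2 copies of GAAA with any 2 bases between them. Of 32817 promoters of this length, 11.2% hold AGATAA, 35.4% AGGAAG, 16.8% TGTGGT, 3.43% the interferon element and 8.29% TTCNNNGAA.
Pf4: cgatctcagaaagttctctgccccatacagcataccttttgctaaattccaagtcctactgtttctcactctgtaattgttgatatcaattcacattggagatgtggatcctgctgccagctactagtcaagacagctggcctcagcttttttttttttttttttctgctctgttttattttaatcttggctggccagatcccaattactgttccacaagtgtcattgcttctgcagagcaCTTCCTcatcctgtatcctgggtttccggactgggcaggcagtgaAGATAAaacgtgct
Itga2b: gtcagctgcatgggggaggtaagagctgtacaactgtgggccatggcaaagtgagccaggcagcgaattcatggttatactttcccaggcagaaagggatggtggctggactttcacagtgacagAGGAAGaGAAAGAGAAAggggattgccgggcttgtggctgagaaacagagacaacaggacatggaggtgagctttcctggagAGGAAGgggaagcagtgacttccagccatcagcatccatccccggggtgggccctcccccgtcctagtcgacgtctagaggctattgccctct
Plek: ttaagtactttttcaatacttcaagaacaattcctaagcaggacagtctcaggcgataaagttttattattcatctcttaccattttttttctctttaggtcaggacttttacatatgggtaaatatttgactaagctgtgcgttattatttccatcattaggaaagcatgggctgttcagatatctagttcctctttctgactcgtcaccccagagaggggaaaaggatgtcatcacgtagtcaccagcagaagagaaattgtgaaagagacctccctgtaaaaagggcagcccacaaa
Gp5: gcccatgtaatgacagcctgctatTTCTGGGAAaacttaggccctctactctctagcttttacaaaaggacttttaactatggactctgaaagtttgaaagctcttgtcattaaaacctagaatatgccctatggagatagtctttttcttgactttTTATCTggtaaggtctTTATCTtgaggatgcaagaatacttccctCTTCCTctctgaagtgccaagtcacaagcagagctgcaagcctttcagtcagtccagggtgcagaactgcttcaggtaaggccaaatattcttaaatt
Selp: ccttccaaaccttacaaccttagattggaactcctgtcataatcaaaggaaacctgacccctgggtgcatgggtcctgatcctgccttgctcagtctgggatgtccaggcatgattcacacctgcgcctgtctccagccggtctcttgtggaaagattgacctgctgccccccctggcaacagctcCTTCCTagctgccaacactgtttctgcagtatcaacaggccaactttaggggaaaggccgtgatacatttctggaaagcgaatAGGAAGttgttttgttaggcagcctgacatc

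The windows lie at chr5:90772185-90772484 (Pf4, plus strand), chr11:102469834-102470133 (Itga2b, minus, mostly inside the annotated gene span), chr11:17008669-17008968 (Plek, minus, inside the annotated gene span), chr16:30310732-30311031 (Gp5, minus) and chr1:164115014-164115313 (Selp, plus). Gp5 held 2 AGATAA matches, starting at positions -93 and -77 from the start site, and Pf4 held 1, starting at position 37. AGGAAG matches were found in Pf4, Gp5, Selp and Itga2b, the last with 2, and the window of Plek held none of the 5 motifs. Gp5 also held 1 STAT motif, starting at position -226. The interferon response motif occurred once, in Itga2b, starting at position -118, where it lies beside an AGGAAG match without overlapping it. This position is inside the annotated span of Itga2b. A match describes letters only, and the absence of one says only that the letters are not in this window. The genes Ppbp and Pf4 are neighbours on chromosome 5, 2371 bases apart.

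The counts table held 17782394 to 73910928 counts per library and 17087 to 28851 detected rows, with 8 libraries under 20000. All 8 were from groups given AZA: VF AZA 2 and 3, VF COMBO 1, 2 and 3, VFDM AZA 3 and 4, and VFDM COMBO 3. The part of low detection in the values of these groups was not tested. Levels are in CPM, the count divided by the TMM-scaled library total and multiplied by 1000000. Each change is given on the log2 scale with its SE. An adjusted p is Benjamini-Hochberg over all 22172 rows from edgeR's quasi-likelihood test, and a gene is said to rise or fall where it is under 0.05. Dnmt3a had 23.0 to 57.0 CPM in VFDM COMBO, 102 to 162 CPM in VFDM IFN, 83.4 to 107 CPM in VFDM AZA and 109 to 120 CPM in VFDM vehicle. It had 104 to 193 CPM in VF COMBO, 160 to 178 CPM in VF IFN, 176 to 223 CPM in VF AZA and 162 to 297 CPM in VF vehicle. The library labelled VFDM IFN 3 had 162 CPM of Dnmt3a, against 102 to 111 CPM in the other VFDM IFN libraries, and the lowest CreERT2 level of the VFDM libraries (113 CPM), so its level went against its label. VF COMBO library 1 held 139.5 CPM summed over 8 T and NK cell markers, all 8 detected, against 20.9 to 28.7 CPM in the other VF COMBO libraries. The labelled cell type was checked by its own markers. All 14 LT-HSC markers were detected in every group, and their summed level was 1484 to 1876 CPM in VFDM COMBO, against 2972 to 3286 CPM in VFDM vehicle, with 1960 to 3259 CPM in the other 6 groups. Of 18 interferon-stimulated genes used as a check on treatment, 17 rose in VF IFN and 18 in VFDM IFN, 17 in VF COMBO and 16 in VFDM COMBO, 2 in VF AZA and 18 in VFDM AZA. VFDM AZA is labelled as given no IFN, so this check did not tell it from VFDM IFN. Irf7 had 115 to 159 CPM in VFDM AZA and 168 to 198 CPM in VFDM IFN. It had 9.85 to 16.8 CPM in VFDM vehicle and 3.34 to 16.6 CPM in VF AZA. The cause, and its part in the members' VFDM AZA values and AZA genotype differences, was not tested.

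Per kilobase of exon, the members' levels in LT-HSCs spanned a wide range. The median over 31 libraries was 119.5 CPM per kilobase for Pf4, 36.6 for Itga2b, 31.4 for Plek, 20.5 for Itgb3, 18.3 for Selp and 16 for Vwf. The platelet receptor subunits were lower, at 7.55 CPM per kilobase for Gp5, 6.15 for Gp9 and 3.22 for Gp1bb, and Ppbp was lowest at 0.619. Ppbp had 0 counts in 5 libraries and at most 199. Of Gp1bb's exonic bases 91.1% are shared with Sept5 on the same strand, so reads of the pair cannot be assigned with certainty. Selp exons overlap the antisense genes Gm16548 and Gm16587 over 9.93% and 4.21% of their bases, Plek overlaps Cnrip1 on the opposite strand over 4.44%, and the strand setting of the counting is not given in the sources used here.

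**Figure D1:**
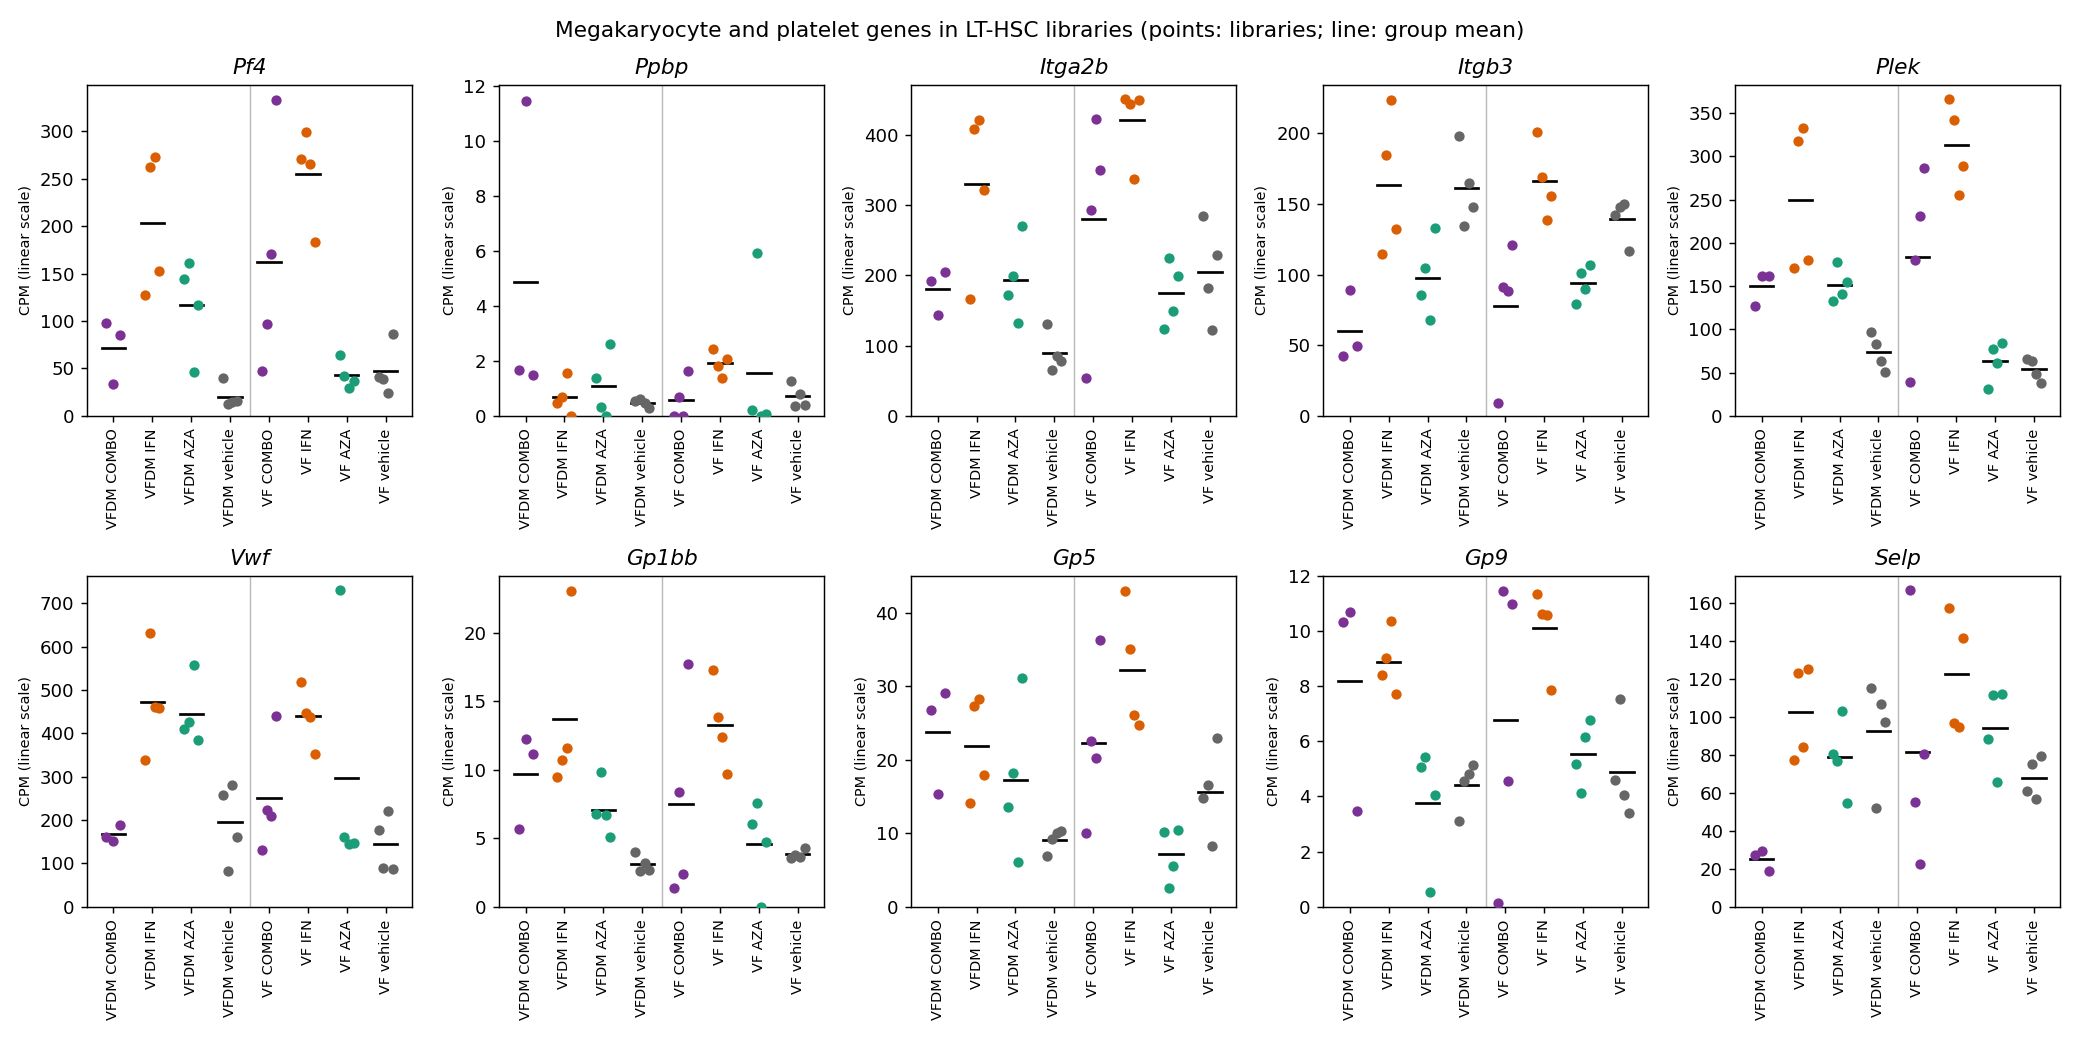
CPM of each member (linear y axis from 0) in every library by group, with VFDM groups left and VF groups right of the grey line; points are libraries and black lines group means. Pf4, Itga2b and Plek have their highest means in VF IFN and VFDM IFN, and Selp lies at 18.8 to 29.6 CPM in the 3 VFDM COMBO libraries.

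In all, 18 of the 150 tests of a member (10 members in 15 comparisons) passed, and 9 of these were in Pf4 and Plek. Of the 22172 rows, 0 to 3551 were called per comparison. The 15 comparisons reuse the same libraries, so the 18 calls are not independent. Against vehicle, IFN in VFDM cells raised 3 members (Pf4, Itga2b and Plek), with 0.916% of all rows called higher. IFN in VF cells raised 2 (Pf4 and Plek), with 1.27% called higher. AZA raised Pf4 alone in VFDM cells (0.852% called higher) and no member in VF cells, where 1.2% of rows were called in either direction. In VF AZA 2 members had an unadjusted p under 0.05, as 14.1% of rows did, and DESeq2 also called no member. COMBO raised Pf4 and Gp5 and lowered Selp and Itgb3 in VFDM cells (5.52% called higher and 10.5% lower), and raised Pf4 and Plek in VF cells (4.16% called higher). The 3 comparisons within a genotype share their vehicle libraries and are not independent.

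The ranges of the libraries were compared as well. In VF IFN, 9 members had all libraries above all VF vehicle libraries (all but Itgb3), where 7.28% of rows did. The count was 7 in VFDM IFN (all but Ppbp, Itgb3 and Selp), where 5.87% of rows did, and 5 in VFDM AZA (Pf4, Itga2b, Plek, Vwf and Gp1bb), where 5.11% did. In VFDM COMBO 5 members lay above vehicle without overlap (Ppbp, Itga2b, Plek, Gp1bb and Gp5) and 2 below (Itgb3 and Selp), against 13.3% and 23.4% of rows. No member was separated upwards in VF AZA (2.27% of rows) or VF COMBO (3.54%), and none downwards in VF COMBO (8.8%). The members' median log2 fold change was 1.27 in VFDM IFN and 1.25 in VF IFN, 1.08 in VFDM AZA and 0.20 in VF AZA, and 1.01 in VFDM COMBO and 0.49 in VF COMBO. Over all tested rows the medians lay between -0.11 and -0.01.

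**Figure D2:**
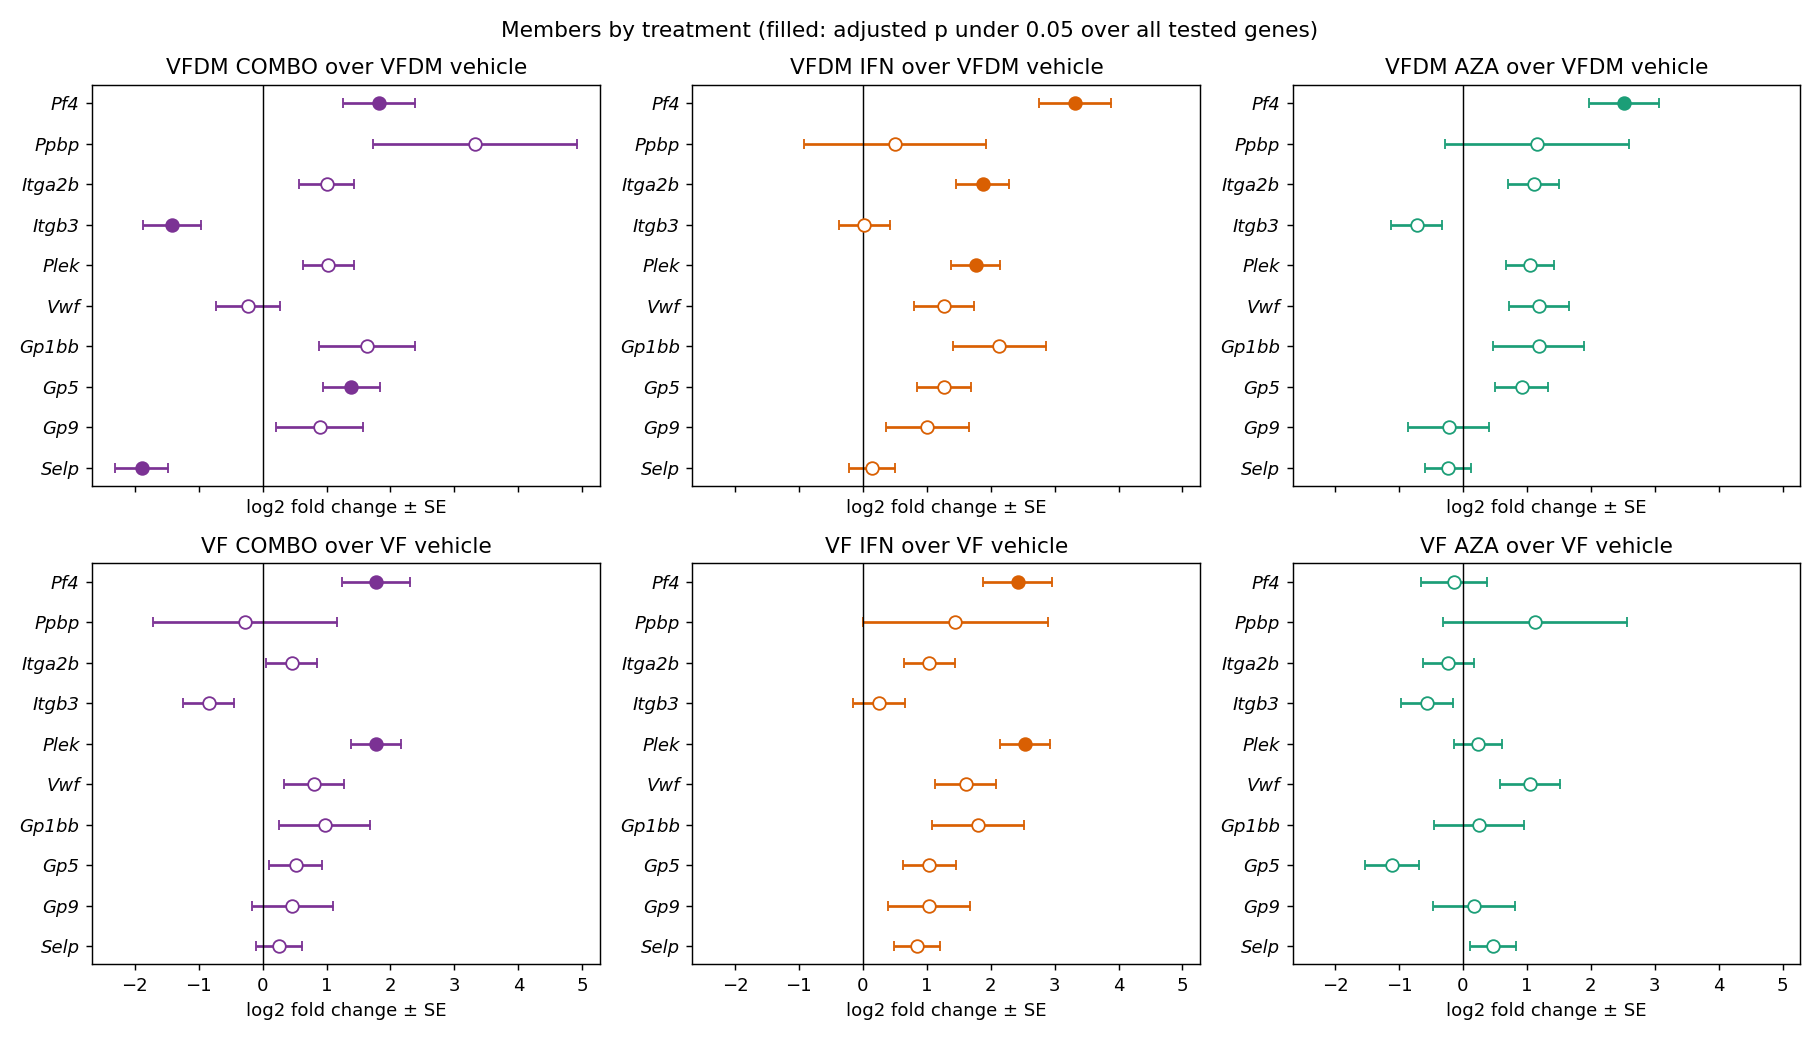
Log2 fold change ± SE (x axis) of each member (y axis) for each treatment over the vehicle of its genotype; VFDM is the upper row, VF the lower, and filled points have an adjusted p under 0.05. Pf4 is filled in all comparisons but VF AZA, and the filled points left of 0 are Selp and Itgb3 in VFDM COMBO.

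Pf4, platelet factor 4, a chemokine stored in platelet alpha granules (ENSMUSG00000029373, chr5:90772435-90773383, plus strand), was the member raised in most comparisons. In VFDM cells it had 127, 262, 273 and 152 CPM with IFN, 145, 161, 46.0 and 117 CPM with AZA, and 97.7, 33.6 and 84.8 CPM with COMBO, against 39.5, 12.1, 14.3 and 15.7 CPM with vehicle. Every IFN and AZA library was above every vehicle library, while 1 COMBO library lay below the highest vehicle library. In VF cells Pf4 had 271, 299, 265 and 184 CPM with IFN, 63.8, 41.9, 29.3 and 36.7 CPM with AZA, and 46.9, 96.9, 170 and 333 CPM with COMBO, against 41.2, 38.9, 24.2 and 86.2 CPM with vehicle. Here the IFN libraries alone were clear of vehicle, and the COMBO libraries were spread over a wide range.

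The rise of Pf4 was 9.98-fold in VFDM IFN (log2 3.32 ± 0.56, adjusted p = 0.00124; 3.14 and 0.00471 without the library labelled VFDM IFN 3). It was 5.73-fold in VFDM AZA (2.52 ± 0.55, adjusted p = 0.0189) and 3.53-fold in VFDM COMBO (1.82 ± 0.56, adjusted p = 0.0280). In VF cells it was 5.37-fold with IFN (2.42 ± 0.54, adjusted p = 0.0135) and 3.41-fold with COMBO (1.77 ± 0.53, adjusted p = 0.0408), while AZA gave -0.14 ± 0.52 (adjusted p = 0.949). Both IFN calls held in every alternative run. The VFDM AZA call ended without VFDM vehicle library 2, 3 or 4 (adjusted p 0.101, 0.0845 and 0.0766). That of VFDM COMBO ended without COMBO library 2 or 4 (0.0954 and 0.0750) or vehicle library 2, 3 or 4 (0.0686, 0.0660 and 0.0586), and that of VF COMBO without COMBO library 3 or 4 (0.0662 and 0.0998) or vehicle library 1, 2 or 3 (0.0903, 0.0799 and 0.0898). Without VF vehicle libraries 1 and 4 together, or with VF COMBO and VF vehicle fitted alone, the VF COMBO call also ended (0.0963 and 0.217).

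The difference between the genotypes in the response of Pf4 was tested directly. For AZA no member passed this test (0.582% of rows called in either direction), and Pf4, Itga2b and Gp5 were among the 10.4% of rows with an unadjusted p under 0.05. For Pf4 it was 2.66 ± 0.75 on the log2 scale, VFDM minus VF, with an adjusted p of 0.134, and DESeq2 gave an adjusted p of 0.00662. The interferon-stimulated genes of the treatment check rose in VFDM AZA as well, and their part in these AZA differences was not tested. The IFN difference was 0.90 ± 0.73 and the COMBO difference 0.05 ± 0.76, with adjusted p of 1.0 and 0.998. COMBO did not pass against IFN alone in VFDM cells (-1.5 ± 0.58, adjusted p = 0.120, and 0.0347 in DESeq2) although every COMBO library was below every IFN library.

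Ppbp, the neighbouring chemokine gene (ENSMUSG00000029372, chr5:90768518-90770063, plus strand), was near the detection limit and passed no test over all 31 libraries in edgeR. It had 1.67, 11.5 and 1.47 CPM in VFDM COMBO, against 0.529, 0.621, 0.483 and 0.295 CPM in VFDM vehicle, with a log2 fold change of 3.32 ± 1.59 (adjusted p = 0.157, and 0.0201 with the 2 groups fitted alone). The value rested on library 3, the highest of the 31. In VF IFN the 4 libraries held 1.38 to 2.43 CPM, against 0.345 to 1.26 CPM in VF vehicle (1.45 ± 1.45, adjusted p = 0.866). A count of 0 allowed up to 0.0400 to 0.174 CPM (3 counts), depending on the library, as counting error only.

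Itga2b, the alpha subunit of the fibrinogen receptor (CD41; ENSMUSG00000034664, chr11:102453297-102470122, minus strand), rose in VFDM IFN. It had 167, 409, 422 and 321 CPM in VFDM IFN, against 131, 65.8, 85.4 and 78.4 CPM in VFDM vehicle, without overlap (3.66-fold, 1.87 ± 0.41, adjusted p = 0.0178). The call ended without the library labelled VFDM IFN 3 (1.73, adjusted p = 0.0638), IFN library 2 (0.0662) or vehicle library 2, 3 or 4 (0.109, 0.0762 and 0.0838). In VF IFN it had 452, 444, 338 and 450 CPM, against 285, 182, 122 and 229 CPM in VF vehicle, also without overlap (1.04 ± 0.40, adjusted p = 0.222). VFDM AZA held 132 to 271 CPM and VFDM COMBO 144 to 204 CPM (1.10 ± 0.40 and 1.0 ± 0.43, adjusted p = 0.293 and 0.114). In VF COMBO it had 53.7, 293, 423 and 350 CPM, the lowest in library 1 (0.45 ± 0.40, adjusted p = 0.513), and in VF AZA 124 to 225 CPM (-0.23 ± 0.40, adjusted p = 0.874).

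Itgb3, which encodes the beta subunit that pairs with Itga2b (ENSMUSG00000020689, chr11:104608000-104670476, plus strand), did not follow its partner. It had 42.3, 89.1 and 49.8 CPM in VFDM COMBO, against 198, 134, 165 and 148 CPM in VFDM vehicle, and fell with no overlap (2.68-fold lower, -1.42 ± 0.45, adjusted p = 0.0318). It was also lower than in VFDM IFN, which held 114 to 224 CPM (-1.44 ± 0.45, adjusted p = 0.0484). Both calls were fragile. The fall against vehicle ended without COMBO library 2 or 4 (0.143 and 0.134), without vehicle library 1, 3 or 4 (0.0862, 0.0663 and 0.0539), and with no filter on low counts (0.0695). The fall against IFN ended without any 1 library of either group (0.0510 to 0.193, and 0.116 without the library labelled VFDM IFN 3), with RLE size factors (0.0594) and with no filter (0.103). In VF COMBO Itgb3 had 9.41, 91.1, 88.5 and 121 CPM, against 142, 148, 150 and 117 CPM in VF vehicle (-0.85 ± 0.40, adjusted p = 0.195; -0.42 and 0.257 without library 1). IFN left Itgb3 at 0.02 ± 0.40 in VFDM cells and 0.25 ± 0.40 in VF cells (adjusted p = 1.0 and 0.953), and AZA at -0.72 ± 0.40 and -0.56 ± 0.40, where every AZA library lay below every vehicle library in both genotypes (adjusted p = 0.628 and 0.592; 7.94% and 4.38% of rows were separated downwards).

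Plek, pleckstrin, the main protein kinase C substrate of platelets (ENSMUSG00000020120, chr11:16971206-17052381, minus strand), rose with IFN in both genotypes. It had 171, 317, 332 and 180 CPM in VFDM IFN, against 96.5, 83.6, 62.9 and 50.7 CPM in VFDM vehicle (3.40-fold, 1.77 ± 0.38, adjusted p = 0.0158). In VF cells it had 366, 342, 255 and 289 CPM with IFN and 39.7, 180, 231 and 286 CPM with COMBO, against 65.4, 63.8, 48.9 and 37.6 CPM with vehicle. Only the COMBO values overlapped vehicle, through VF COMBO library 1. The rise was 5.80-fold in VF IFN (2.54 ± 0.40, adjusted p = 2.57e-04) and 3.42-fold in VF COMBO (1.77 ± 0.39, adjusted p = 0.00500). Without VF COMBO library 1 the COMBO change was 2.17 with an adjusted p of 5.02e-06.

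In VFDM AZA Plek had 133 to 178 CPM and in VFDM COMBO 127 to 162 CPM, all above vehicle, with changes of 1.05 ± 0.38 and 1.03 ± 0.40 (adjusted p = 0.283 and 0.0816). VF AZA libraries had 30.6 to 84.7 CPM, overlapping VF vehicle (0.23 ± 0.38, adjusted p = 0.862). The VFDM IFN call ended without the library labelled VFDM IFN 3 (0.0638), IFN library 2 (0.0621) or vehicle library 2, 3 or 4 (0.0522, 0.0766 and 0.0882). That of VF COMBO ended without VF vehicle libraries 1 and 4 together (0.10) and with the 2 groups fitted alone (0.132). COMBO was also above AZA alone in VF cells for Plek (1.54 ± 0.38, adjusted p = 0.0357, with 1.06% of rows called higher). That call ended without COMBO library 2, 3 or 4 (0.0656, 0.0983 and 0.0561) or AZA library 1, 2 or 3 (0.0753, 0.0516 and 0.0826).

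Vwf, the multimeric ligand that tethers platelets to collagen (ENSMUSG00000001930, chr6:125546774-125686679, plus strand), passed no test over all 31 libraries in edgeR, although 3 of the 4 groups given 1 drug were separated from vehicle. VFDM IFN had 339, 632, 460 and 457 CPM and VFDM AZA 411, 426, 558 and 385 CPM, against 257, 81.6, 282 and 162 CPM in VFDM vehicle. Neither overlapped vehicle (1.27 ± 0.47 and 1.19 ± 0.47, adjusted p = 0.432 and 0.362). VFDM COMBO, at 161, 151 and 189 CPM, lay within the range of vehicle (-0.23 ± 0.50, adjusted p = 0.831) and below every VFDM IFN and VFDM AZA library (-1.5 ± 0.53 and -1.41 ± 0.52, adjusted p = 0.0832 and 0.101). DESeq2 called both of these differences (adjusted p = 0.0174 against IFN and 0.0248 against AZA), as did the fits of the 2 groups alone (0.00180 and 6.07e-04).

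In VF IFN Vwf had 519, 447, 438 and 353 CPM, against 177, 90.1, 222 and 86.1 CPM in VF vehicle (1.61 ± 0.48, adjusted p = 0.0784). It passed there in DESeq2 (adjusted p = 0.00662), with the 2 groups fitted alone (0.0117), with libraries of at least 20000 detected rows (0.0476) and without VF vehicle library 3 (0.0382). In VF AZA 1 library stood at 731 CPM and the others at 161, 145 and 148 CPM, and the change was 1.04 ± 0.47 (adjusted p = 0.311). The 4 VF COMBO libraries held 130, 223, 210 and 441 CPM (0.80 ± 0.47, adjusted p = 0.296).

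The receptor for Vwf on platelets is built from Gp1ba, Gp1bb, Gp9 and Gp5, and of these genes Gp5 passed a test over all 31 libraries in edgeR. Gp5 (ENSMUSG00000047953, chr16:30307685-30310779, minus strand), the subunit that thrombin cleaves, had 26.8, 15.3 and 29.1 CPM in VFDM COMBO, against 6.90, 9.17, 10.1 and 10.3 CPM in VFDM vehicle. The ranges did not overlap, and it rose 2.61-fold (1.38 ± 0.45, adjusted p = 0.0301). The call ended without COMBO library 2 or 4 (0.0729 and 0.0968) or vehicle library 1 (0.0684). In VF cells Gp5 had 10.0, 22.6, 20.3 and 36.3 CPM with COMBO, 43.1, 35.0, 26.1 and 24.7 CPM with IFN and 10.2, 2.59, 5.48 and 10.5 CPM with AZA, against 14.8, 16.6, 8.31 and 22.9 CPM with vehicle. The IFN libraries were all above vehicle (1.04 ± 0.42, adjusted p = 0.236) and the AZA libraries overlapped it (-1.12 ± 0.42, adjusted p = 0.198).

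In VFDM IFN Gp5 had 14.1 to 28.3 CPM, all above vehicle, and in VFDM AZA 6.02 to 31.1 CPM, which overlapped it (1.27 ± 0.42 and 0.92 ± 0.42, adjusted p = 0.254 and 0.457). COMBO exceeded AZA alone for Gp5 in VF cells (3.09-fold, 1.63 ± 0.43, adjusted p = 0.0390) although 1 COMBO library lay within the AZA range. That call ended without COMBO library 2, 3 or 4 (0.0656, 0.0569 and 0.0689) or AZA library 2 or 3 (0.104 and 0.0966). Without VF COMBO library 1, 4 members passed in this comparison: Pf4 (adjusted p = 0.0118), Itga2b (0.0390), Plek (4.93e-05) and Gp5 (0.00674). With VF COMBO and VF AZA fitted alone none passed (Plek 0.537, Gp5 0.487). The AZA response of Gp5 was 2.04 ± 0.59 higher on the log2 scale in VFDM than in VF cells, with an adjusted p of 0.138 in edgeR and 0.0412 in DESeq2.

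Gp1bb, Gp9 and Gp1ba passed no test against vehicle over all 31 libraries in edgeR. Gp1bb (ENSMUSG00000050761, chr16:18620317-18622403, minus strand), the beta subunit of Gp1b, had 9.46 to 23.0 CPM in VFDM IFN, against 2.63 to 3.96 CPM in VFDM vehicle (2.13 ± 0.73, adjusted p = 0.290), and 9.64 to 17.3 CPM in VF IFN, against 3.56 to 4.28 CPM in VF vehicle (1.80 ± 0.72, adjusted p = 0.237). Sept5, with which it shares most of its exonic bases, had the profile closest to the members over all libraries (below), and its part in the Gp1bb values was not tested. Gp9 (ENSMUSG00000030054, chr6:87778072-87779768, plus strand), which the complex needs to reach the cell surface, had 7.71 to 10.4 CPM in VFDM IFN, against 3.10 to 5.14 CPM in VFDM vehicle, and 7.87 to 11.3 CPM in VF IFN, against 3.41 to 7.55 CPM in VF vehicle (1.01 ± 0.64 and 1.04 ± 0.64, adjusted p = 1.0 and 0.594). In VFDM COMBO Gp1bb had 5.65, 12.3 and 11.1 CPM (1.63 ± 0.76, adjusted p = 0.141) and Gp9 10.3, 10.7 and 3.48 CPM (0.89 ± 0.68, adjusted p = 0.427). Their estimates lay between -0.23 and 1.18 in the other AZA and COMBO groups. With the 2 groups fitted alone, Gp1bb passed in VFDM IFN (adjusted p = 0.00188), VFDM COMBO (0.0128) and VF IFN (0.00159), and Gp9 in VFDM IFN (0.0242). With libraries of at least 20000 detected rows, Gp1bb passed in VFDM IFN (adjusted p = 5.55e-05) and VF IFN (3.19e-04), and Gp9 in VF IFN (0.0374). Gp1bb also passed in VFDM AZA (0.0498), left with libraries 1 and 2, and in VFDM COMBO (0.00210), left with libraries 2 and 4. Of VF COMBO this setting left library 4 alone, and the Gp1bb change over VF vehicle was 2.24. Gp1ba, the Vwf-binding subunit, which is not a member, averaged 11.9 ± 3.73 CPM in VFDM IFN and 5.73 ± 2.40 CPM in VFDM vehicle (SD, n = 4 each; 1.05 ± 0.45, adjusted p = 0.626), and 16.3 ± 3.48 CPM in VF IFN and 7.13 ± 0.84 CPM in VF vehicle (1.19 ± 0.45, adjusted p = 0.199).

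Selp, P-selectin, the granule receptor that activated platelets display to bind leukocytes (ENSMUSG00000026580, chr1:164115264-164150026, plus strand), fell in VFDM COMBO. Its 3 libraries held 27.1, 29.6 and 18.8 CPM, against 115, 52.0, 107 and 97.6 CPM in VFDM vehicle, all below (3.70-fold lower, -1.89 ± 0.42, adjusted p = 0.00199). They also lay below all VFDM IFN libraries (77.4, 123, 84.2 and 126 CPM; -2.03 ± 0.42, adjusted p = 0.00218, with 6.28% of rows called lower) and all VFDM AZA libraries (80.5, 77.0, 103 and 54.8 CPM; -1.65 ± 0.41, adjusted p = 0.0116, with 5.87% called lower). The falls against vehicle and IFN held in every alternative run, with -2.11 and an adjusted p of 0.00312 against IFN without the library labelled VFDM IFN 3. The fall against AZA ended without COMBO library 4 (0.0745).

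In VF COMBO Selp had 167, 55.0, 22.5 and 80.7 CPM, against 61.0, 75.0, 56.6 and 79.5 CPM in VF vehicle, and did not differ beyond this spread (0.26 ± 0.36, adjusted p = 0.709). The highest and the lowest value of the comparison both belonged to COMBO, the highest being library 1. The COMBO response of Selp was lower in VFDM than in VF cells by an interaction of -2.15 ± 0.54 (adjusted p = 0.0237, with 2.49% of rows called lower). Without VF COMBO library 1 it was -1.52 (adjusted p = 0.0481). The call ended without VFDM COMBO library 4 (0.0687), without VF vehicle libraries 1 and 4 together (0.104), and with the 4 groups fitted alone (0.113). Single drugs did not pass for Selp, with 0.14 ± 0.36 in VFDM IFN and 0.85 ± 0.36 in VF IFN (adjusted p = 1.0 and 0.295), and -0.24 ± 0.36 in VFDM AZA and 0.47 ± 0.36 in VF AZA (adjusted p = 0.932 and 0.626).

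The genotypes were compared without treatment and on average. No member passed between VFDM and VF vehicle (0.956% of rows called in either direction) or in the average over 4 treatments (2.37% called). Of the vehicle comparison, 2 members had an unadjusted p under 0.05, where 11.4% of rows did. These were Itga2b, with 90.1 ± 28.2 CPM in VFDM vehicle and 204 ± 69.1 CPM in VF vehicle (SD, n = 4 each; -1.18 ± 0.40, adjusted p = 0.188), and Pf4, with 20.4 ± 12.8 CPM in VFDM vehicle and 47.6 ± 26.8 CPM in VF vehicle (-1.22 ± 0.53, adjusted p = 0.354). DESeq2 called no member in either comparison. In the average, 2 members had an unadjusted p under 0.05, where 14.7% of rows did: Itga2b (-0.50 ± 0.20, adjusted p = 0.230, and 0.0272 without VF COMBO library 1) and Selp (-0.44 ± 0.19, adjusted p = 0.249).

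By mean level, VF IFN was first and VFDM IFN next for Itgb3, Gp9 and Selp, as for Pf4, Itga2b and Plek. For Pf4, Itga2b and Plek the 3 highest of the 8 groups were the same, while VF vehicle ranked 6, 4 and 8. VF IFN was highest for all 3 (255 ± 49.8, 421 ± 55.6 and 313 ± 50.2 CPM; SD, n = 4), followed by VFDM IFN (204 ± 74.9, 330 ± 117 and 250 ± 86.8 CPM) and VF COMBO (162 ± 125, 280 ± 160 and 184 ± 106 CPM). Neighbouring groups in the order overlapped for all 10 members with 2 exceptions. For Plek it was VFDM COMBO (150 ± 20.1 CPM, n = 3) and VFDM vehicle (73.4 ± 20.5 CPM, n = 4) that lay apart. Selp had VFDM COMBO lowest (25.2 ± 5.65 CPM, n = 3), apart from the next group, VF vehicle (68.0 ± 11 CPM, n = 4). Over the 31 libraries the standardised log2 levels of Pf4 and Itga2b differed by 0.424 on average and those of Pf4 and Plek by 0.434, while Selp was the member furthest from the mean of the other 9 (0.900). These likeness values describe the libraries and carry no test.

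COMBO was also set against each drug. In VF cells all 10 members had a lower estimate in COMBO than in IFN, with log2 differences from -1.72 to -0.53, and none passed (0.00902% of rows called in either direction). Without VF COMBO library 1 all 10 were still below 0, from -1.28 to -0.12. There was 1 member, Itgb3, with all COMBO libraries below all IFN libraries (8.31% of rows were), and it alone had an unadjusted p under 0.05, as 11.2% of rows did, and DESeq2 called no member. In VFDM cells 5 members lay below IFN without overlap (Pf4, Itgb3, Plek, Vwf and Selp), where 14.7% of rows did, and 2 passed, Selp and Itgb3. Set against AZA in VFDM cells, Vwf and Selp lay below without overlap (9.14% of rows) and Selp passed. The difference of the IFN response between genotypes passed for no member and no row of the table, with 5.18% of rows at an unadjusted p under 0.05 and no member among them.

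Another 133 megakaryocyte and platelet genes in 6 lists, 131 of them tested, were examined beside the members. In VFDM cells 12 rose and none fell with IFN, where 0.916% of all rows were called higher and 0.0496% lower. With AZA 9 rose and none fell (0.852% and 0.0722% of rows), and with COMBO 19 rose and 31 fell (5.52% and 10.5%). In VF cells 16 rose and 1 fell with IFN (1.27% and 1.16% of rows), and 2 rose and none fell with AZA (0.293% and 0.902%). With COMBO 21 rose and 5 fell in VF cells (4.16% and 4.13% of rows), so that the falls were near the share over all rows. Their median log2 fold change was 0.13, 0.01 and 0.02 in VFDM IFN, AZA and COMBO and 0.25, -0.02 and 0.20 in VF IFN, AZA and COMBO.

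**Figure D3:**
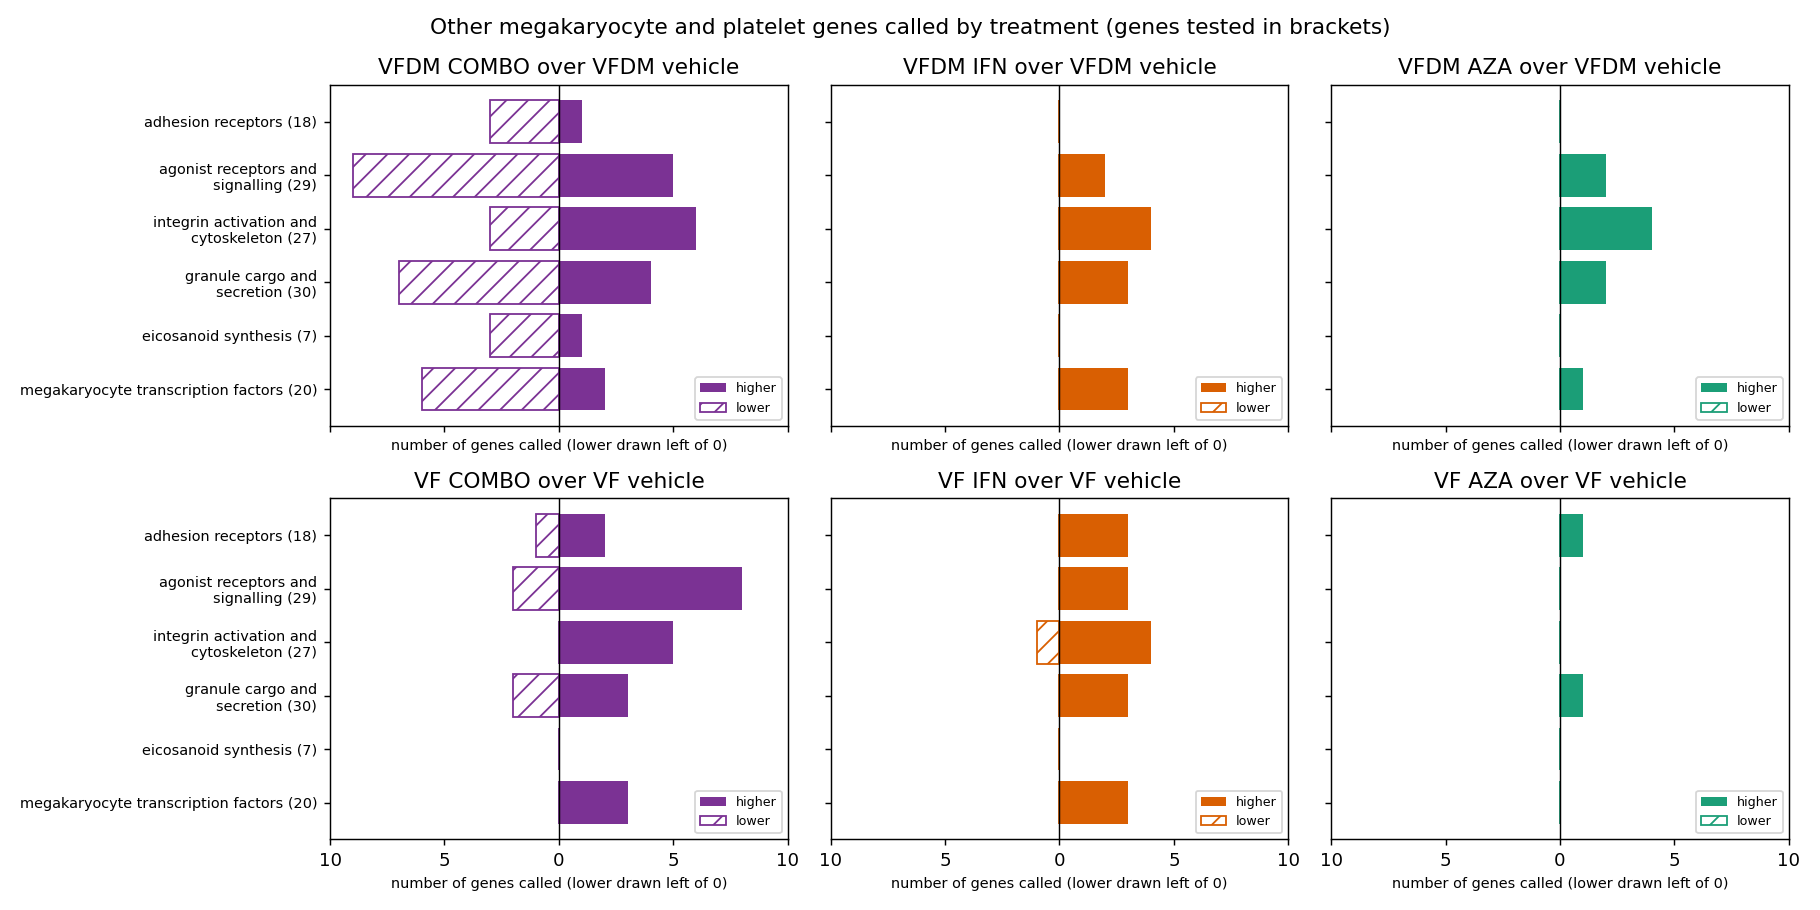
Number of genes called higher (solid, right of 0) and lower (hatched, left of 0) in each of 6 lists of megakaryocyte and platelet genes, by treatment over the vehicle of the same genotype; the number tested in each list is in brackets. VFDM COMBO is the group with 31 genes lower, and the other 5 comparisons have 0 to 5.

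Genes that rose with IFN in both genotypes came from 4 of the 6 lists, with the transcription factor Mef2c among them. Among cytoskeletal and integrin-activating genes, Rap1b, the small GTPase that switches the fibrinogen receptor on, rose by 1.43 ± 0.18 in VFDM IFN and 1.5 ± 0.18 in VF IFN (adjusted p = 3.60e-06 and 1.13e-06), with 474 ± 96.5 CPM in VFDM IFN and 176 ± 13.2 CPM in VFDM vehicle (SD, n = 4 each). Tuba8, Lims1 and Vcl rose in both as well, so that 4 of 27 rose in each genotype, and Myh9, a non-muscle myosin, fell in VF IFN (-0.65, adjusted p = 0.0349). In the granule list 3 of 30 rose in each genotype, led by Serpine2, a protease inhibitor of platelet granules (3.63 in VFDM IFN and 3.59 in VF IFN, adjusted p = 3.03e-06 and 2.62e-06), with Rab27b, a regulator of granule release, also in both. Of the agonist receptors and signalling genes, 2 of 29 rose in VFDM IFN and 3 of 29 in VF IFN. F2rl2, a thrombin receptor of mouse platelets, was in both (2.48 and 3.16, adjusted p = 0.0117 and 5.74e-04). Of 18 adhesion receptors none passed in VFDM IFN, while Itga6, Cd47 and Cd9 rose in VF IFN, and none of the 7 eicosanoid genes passed with either single drug.

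The transcription factors of the lineage gave different patterns. Gata1, the factor that drives megakaryocyte and red cell genes, had 89.1 ± 19.1 CPM in VFDM COMBO (n = 3), 34.1 ± 12.6 CPM in VFDM IFN and 37.7 ± 18.3 CPM in VFDM AZA, against 8.18 ± 1.18 CPM in VFDM vehicle (SD, n = 4). All 3 rises passed (3.45 ± 0.37, 2.06 ± 0.34 and 2.20 ± 0.34, adjusted p = 3.77e-08, 2.51e-04 and 1.22e-04). In VF cells it rose with COMBO (1.18 ± 0.33, adjusted p = 0.0227) but did not pass with IFN (0.82 ± 0.33, adjusted p = 0.231) or AZA (-0.04 ± 0.33, adjusted p = 0.978). Fli1, an ETS factor of megakaryocytes, rose in VF IFN (0.81 ± 0.14, adjusted p = 4.27e-04) and fell in VFDM COMBO (-0.76 ± 0.15, adjusted p = 5.54e-04). Nfe2, needed for platelet formation, fell in VFDM COMBO (-0.53 ± 0.13, adjusted p = 0.00311) and passed with neither single drug.

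In VFDM COMBO most pathway calls were falls, as were most calls over all rows (2327 lower and 1224 higher). Of the members, Pf4 and Gp5 rose and Selp and Itgb3 fell. Mmrn1, a granule protein that binds factor V, fell by 3.32 (adjusted p = 9.91e-08), and Ptgs1 and Tbxas1, which make thromboxane in platelets, fell by 2.57 and 1.83 (adjusted p = 5.85e-08 and 9.33e-09). Esam, a junctional adhesion molecule of platelets and LT-HSCs, fell by 4.15 (adjusted p = 1.13e-09) and the related F11r by 2.68 (adjusted p = 2.04e-04). Stom, a membrane scaffold protein shared with red cells, rose (2.96, adjusted p = 5.65e-07), and so did Parvb (3.48), an integrin adaptor, and Rgs10 (3.52), a brake on G-protein signalling.

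Markers of other cells moved with both COMBO groups. In VF COMBO 4 of 14 erythroid markers rose, with a summed level of 451 to 1226 CPM in VF COMBO and 248 to 541 CPM in VF vehicle. Of 7 T and NK markers tested 3 rose there, with sums of 20.9 to 139.5 CPM in VF COMBO and 10.6 to 18 CPM in VF vehicle. Of 5 B cell markers tested 1 rose, of 10 neutrophil markers none was called, and of 14 LT-HSC markers 2 rose and 3 fell. The mast cell and basophil sum was 7.16 to 36.3 CPM in VF COMBO and 3.08 to 4.74 CPM in VF vehicle. The part of these cells in the rises of Pf4 and Plek was not tested. All 14 erythroid markers were detected in VFDM COMBO and 13 of 14 rose, with a summed level of 2388 to 21267 CPM in VFDM COMBO and 489 to 516 CPM in VFDM vehicle. Of 10 neutrophil markers, all detected, 6 rose, with sums of 676 to 1730 CPM in VFDM COMBO and 34.1 to 98.4 CPM in VFDM vehicle. The T and NK sum was 25.2 to 35.7 CPM in VFDM COMBO and 8.15 to 12.1 CPM in VFDM vehicle. The B cell sum was 8.74 to 42.1 CPM and 4.31 to 6.37 CPM, and the mast cell and basophil sum 28.3 to 54.1 CPM and 1.39 to 8.09 CPM. The monocyte and macrophage sum overlapped vehicle. Of 14 LT-HSC markers 9 fell and none rose, Esam, counted in both lists, Hlf and Procr among them (-3.67 and -7.54, adjusted p = 5.80e-11 and 3.33e-07). The 10 other megakaryocyte markers summed to 167 to 327 CPM in VFDM COMBO and 470 to 671 CPM in VFDM vehicle, and the collagen receptor gene Gp6, restricted to the platelet lineage, was 0.115 to 0.753 CPM in VFDM COMBO and 0 to 0.220 CPM in VFDM vehicle. The part of these cells in the values of Pf4, Gp5, Selp and Itgb3 was not tested.

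**Figure D4:**
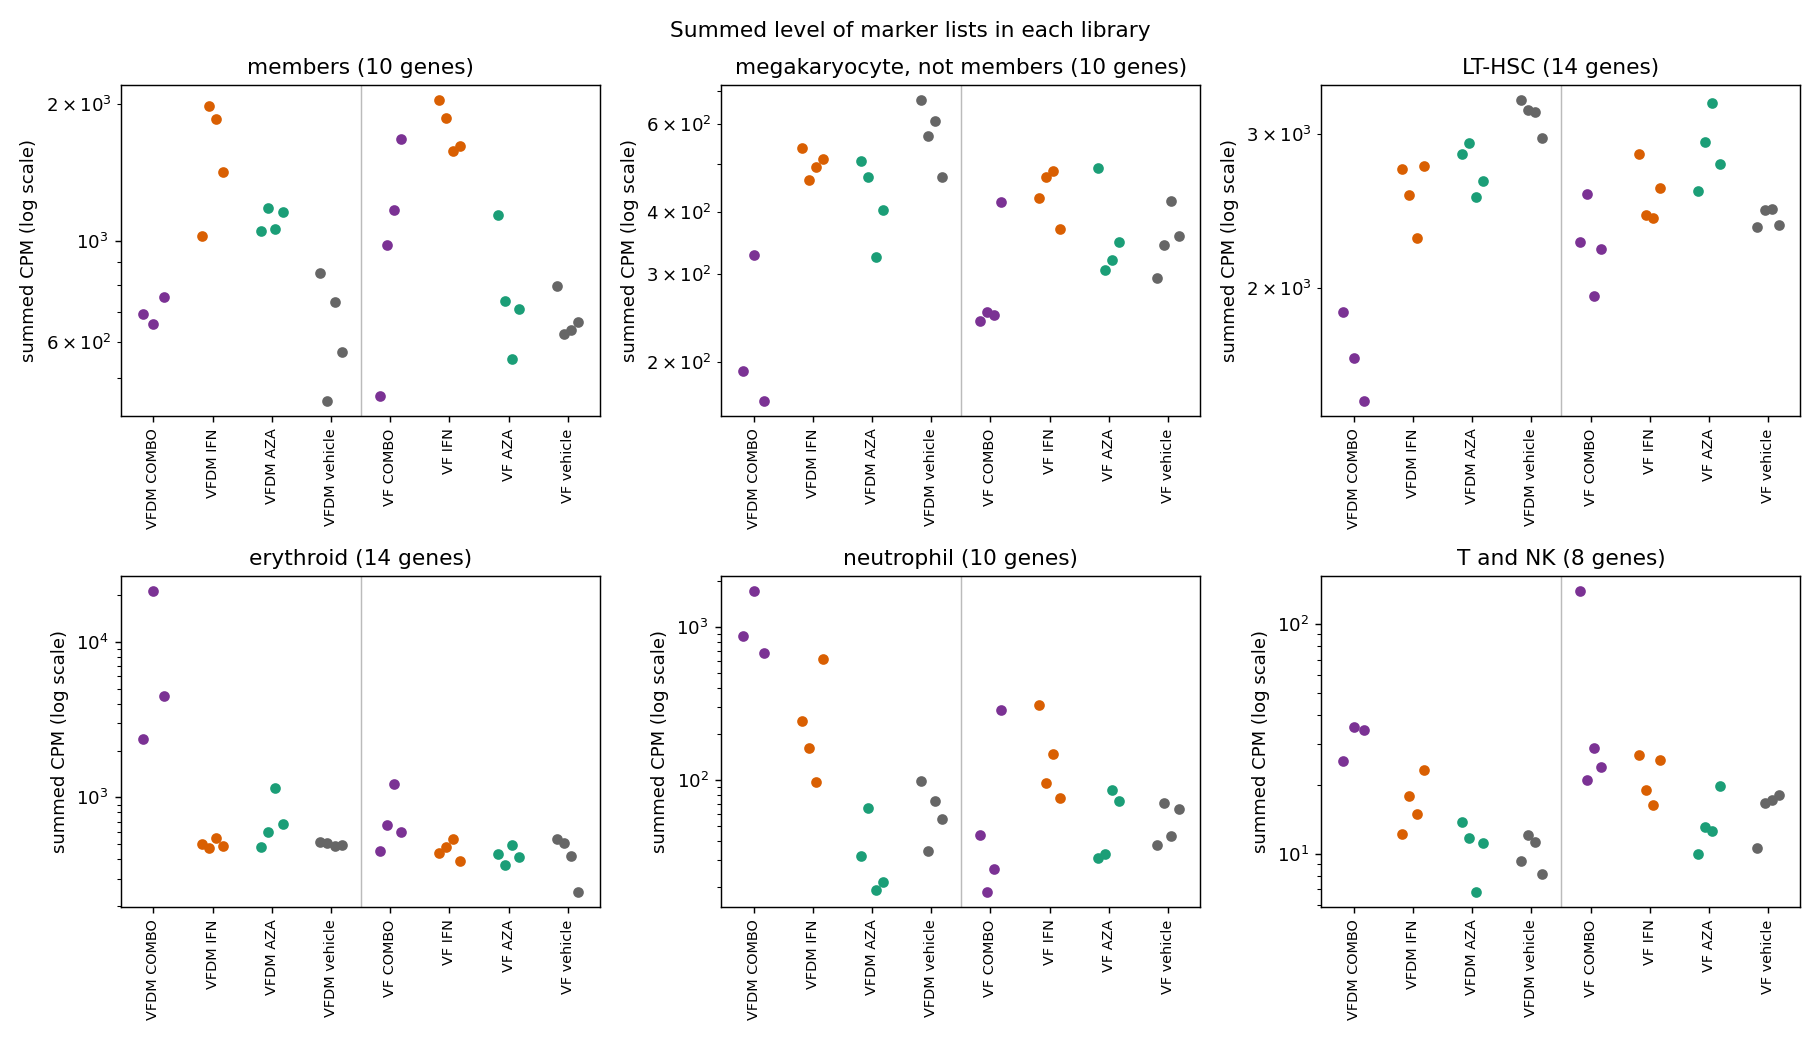
Summed CPM (log y axis) of the 10 members, of 10 other megakaryocyte markers and of 4 further marker lists in each library, by group; points are libraries. The 3 VFDM COMBO libraries are the highest in the erythroid and neutrophil panels and the lowest in the LT-HSC panel, and VF COMBO library 1 stands at 139.5 CPM in the T and NK panel.

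In VFDM AZA 5 of 14 erythroid markers rose, with sums of 480.0 to 1143 CPM in VFDM AZA and 489 to 516 CPM in VFDM vehicle, and the neutrophil sum was 19.2 to 65.5 CPM. In VFDM IFN 5 of 10 neutrophil markers rose (97.2 to 618 CPM, against 34.1 to 98.4 CPM in VFDM vehicle), and no erythroid marker passed. The monocyte and macrophage sum was 110.1 to 221 CPM in VFDM IFN and 72.4 to 85.4 CPM in VFDM vehicle. The T and NK sum was 12.2 to 23.0 CPM in VFDM IFN and 8.15 to 12.1 CPM in VFDM vehicle. Neither sum overlapped vehicle. In VF IFN 1 erythroid marker, Car1, rose, and the erythroid sum was 388 to 544 CPM, against 248 to 541 CPM in VF vehicle. The sums of 3 other lists lay above VF vehicle without overlap in VF IFN, with no marker of them called. The neutrophil sum was 76.2 to 308 CPM in VF IFN and 37.5 to 71.0 CPM in VF vehicle. The monocyte and macrophage sum was 114 to 187 CPM in VF IFN and 48.7 to 110.3 CPM in VF vehicle, and the mast cell and basophil sum 6.63 to 16.3 CPM in VF IFN and 3.08 to 4.74 CPM in VF vehicle. The 10 other megakaryocyte markers summed to 463 to 538 CPM in VFDM IFN and 324 to 506 CPM in VFDM AZA, against 470 to 671 CPM in VFDM vehicle, and to 369.8 to 484 CPM in VF IFN, against 294 to 421 CPM in VF vehicle, all overlapping. Pf4, Itga2b, Plek, Vwf and Gp1bb were above vehicle without overlap in all 3 of these groups, Gp5 and Gp9 in both IFN groups, and Ppbp and Selp in VF IFN. Gp6 was at 0 in all VFDM AZA libraries and did not exceed 0.147 CPM in any library of these 3 groups. This is near the detection limit, as 3 counts are 0.0400 to 0.158 CPM in these libraries. The part of other cells in the values of Pf4, Plek and Itga2b was not tested. The gating markers moved too. Ly6a, which encodes Sca1, rose in VFDM IFN (1.98, adjusted p = 9.29e-06), VFDM AZA (1.82, adjusted p = 4.98e-05), VF IFN (1.85, adjusted p = 2.39e-05) and VF COMBO (1.13, adjusted p = 0.00601), and Slamf1, which encodes CD150, was higher in VFDM than in VF on average (0.84, adjusted p = 5.56e-06). Their part in the members' values was not tested.

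The genes most like the members were taken by the mean absolute difference between a gene's standardised log2 CPM and the mean of the members over the 31 libraries, among 10460 genes. Sept5 was closest (0.410), followed by Rab27b (0.448), Robo3 (0.452), Rap1b (0.458), Pde10a (0.458), Tmem123 (0.460), Dusp3 (0.461) and Lims1 (0.462), with a median of 0.902 over all these genes. Sept5 overlaps Gp1bb, and Rab27b, Rap1b and Lims1 also stand on the pathway lists above.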

How the data were processed

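The deposited table holds raw gene counts that the authors made with STAR 2.7.10a and featureCounts on mm10 after FastQC 0.11.5, with R 4.3.0, per the submitters' processing notes, from PicoPure RNA and SMART-Seq Stranded libraries, per the labels. Neither annotation nor strand setting is given in the sources used here. Symbols and positions come from GENCODE vM21 (GRCm38) and promoters from RefSeq (GRCm38.p6).

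Tests used edgeR 4.0.16 (R 4.3.3) on the counts. TMM scaling was over 31 libraries, filterByExpr (10 counts in enough libraries, 15 in total) kept 22172 rows, and a robust quasi-likelihood model with 1 mean per group gave 15 two-sided comparisons, adjusted by Benjamini-Hochberg. The SE is the log2 fold change divided by the square root of F. Alternatives were RLE size factors, no filter, DESeq2 1.42.0, the replicate number as a block, the compared groups alone, each library left out, no VF vehicle libraries 1 and 4, and libraries with at least 20000 detected rows.

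The members and lists were chosen with earlier results of these data known. Named genes were all members, up to 6 genes with the smallest p per pathway list, the genes Gata1, Fli1, Nfe2 and Gp1ba, and up to 4 per other list and the genes most like the members. The text gives those that describe each group, and some genes of this rule are not reported here. In every pair of replicates within a group the chi-square was at least 19.6 per degree of freedom, so no pair differed by counting noise alone. This cannot exclude technical repeats, because the measure is set against counting noise only, and pairs across groups were not compared. The chi-square per degree of freedom was 125 to 716 in VF vehicle pairs, and at most 161 in pairs of the other groups. VF vehicle libraries 2 and 4 had TMM factors of 0.753 and 0.719, against 0.978 to 1.07 in the libraries of the other groups.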

Additional observations from a re-analysis of the deposited data

Results flagged for a closer look

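In 5 of 70 combinations of a member and a group of 4 libraries, 1 library stood apart from the other 3, its gap to the nearest being over 0.829 of the range. Chance gives about 1 in 20. Pf4 was 39.5 CPM in VFDM vehicle library 1, with 12.1 to 15.7 CPM in the others. Ppbp was 5.93 CPM in VF AZA library 2, with 0 to 0.198 CPM in the others. Itga2b was 338 CPM in VF IFN library 3, with 444 to 452 CPM in the others. Vwf was 731 CPM in VF AZA library 1, with 145 to 161 CPM in the others. Gp1bb was 23.0 CPM in VFDM IFN library 4, with 9.46 to 11.6 CPM in the others.

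The response of Selp to COMBO differed between the genotypes by the interaction term, with a log2 value of -2.15 for VFDM minus VF (adjusted p = 0.0237).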

How the results depend on the processing

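Of 2598 recomputed values of single members, 2487 kept their direction where called and their side of the threshold, 68 lost a call, 43 gained one and none reversed a called direction. The calls of Pf4 and Plek in VF IFN, of Pf4 in VFDM IFN and of Selp in VFDM COMBO against vehicle and IFN held in every setting run. With the compared groups alone, the members called were 8 in VFDM COMBO, 6 in VFDM IFN, 3 in VFDM AZA, 0 in VF COMBO and 6 in VF IFN, and 2 for VFDM COMBO against AZA, 0 for VF COMBO against AZA and 0 for the COMBO interaction, in place of 4, 3, 1, 2, 2, 1, 2 and 1. With libraries of at least 20000 detected rows they were 7 in VFDM COMBO, 5 in VFDM IFN, 2 in VFDM AZA and 8 in VF IFN. In that setting 1 (Itga2b) was called for VFDM against VF vehicle and 2 for VFDM COMBO against AZA. It left only libraries 2 and 4 of VFDM COMBO, 1 and 2 of VFDM AZA and 1 and 4 of VF AZA. Of VF COMBO it left library 4 alone, so no counts are given for comparisons with that group. DESeq2 called 4 for VFDM COMBO against IFN (Pf4 and Vwf added), 2 against AZA (Vwf added), 2 (Pf4 and Gp5) for the AZA interaction, 5 in VFDM COMBO (Plek added), 3 in VF IFN (Vwf added) and 3 for VF COMBO against AZA (Pf4 added). With RLE size factors or no filter VFDM COMBO against IFN had 1, and with no filter VF COMBO against AZA had 1. Without VF vehicle libraries 1 and 4, VF COMBO against vehicle and the COMBO interaction had 0. Leaving out 1 library gave 1 to 4 in VFDM COMBO, 1 to 3 in VFDM IFN, 0 to 1 in VFDM AZA, 1 to 2 in VF COMBO, 2 to 3 in VF IFN and 0 to 1 for the genotype average. It gave 1 for VFDM COMBO against IFN, 0 to 1 against AZA, 0 to 4 for VF COMBO against AZA and 0 to 1 for the COMBO interaction. The causes were not tested.

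Replicate numbers did not pair the libraries (median correlation of same-numbered libraries -0.00078 over 105 pairs, 6 above 0.1). With the replicate number as a block, 1 member was called for VFDM COMBO against IFN, 1 for VF COMBO against AZA and 0 for the COMBO interaction (Selp adjusted p = 0.0596).

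Over all settings, all rows called ranged from 2531 to 6062 in VFDM COMBO, 120 to 1092 in VFDM IFN, 112 to 478 in VFDM AZA, 117 to 3317 in VF COMBO, 205 to 1522 in VF IFN and 0 to 1023 in VF AZA. Pathway genes called ranged from 41 to 68, 9 to 30, 4 to 15, 5 to 41, 11 to 40 and 0 to 9 in the same groups. The VF COMBO ranges include the setting that left library 4 of that group alone. Depth limits Ppbp, Gp1bb and Gp9 most, with at most 199, 723 and 590 counts in a library.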
